A study of Mus musculus with 30 samples.

Results

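The 10 genes described here, *Ldb3*, *Bin1*, *Nfix*, *Clasp1*, *Capzb*, *Camk2b*, *Ttn*, *Neb*, *Cacna1s* and *Mtmr1*, are known to be mis-spliced in myotonic dystrophy. They were chosen by name and not by their level, though earlier results of these data were known. The question put to them was whether the total amount of their transcripts moves between the groups of the study as well as their splicing. All 10 were found among the 56748 genes of the count table, and all 10 were among the 17518 genes that passed the filter on low counts. The table gives 1 number per gene and library, summed over all of a gene's exons and isoforms, so it holds no measure of splicing.

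The libraries came from poly(A)-selected quadriceps RNA, 1 from each of 30 mice. The 5 WT mice were untreated FVB/N animals. All others were homozygous HSA-LR mice of line 20b on the FVB/N background, which the labels call DM1 and which carry a human skeletal actin transgene with an expanded CTG repeat. The 8 nontreated HSA-LR mice (NT) received nothing. The other HSA-LR mice were injected in the tail vein at 8 weeks of age, and muscle was taken 2 weeks after the last injection. Of these, 4 were given 5.3 mg/kg of pacDNA-L9, 3 were given 21.2 mg/kg and another 3 the highest dose, 42.4 mg/kg. Free L9 went to 3 mice and pacDNA-Scr to 2, both at 5.3 mg/kg, and 2 mice had 40 nanomoles of Brush. L9 is a locked nucleic acid antisense strand of CAG repeats, pacDNA is the same kind of strand tethered to a bottlebrush polymer, Scr is a scrambled strand and Brush is the polymer alone. The 2 higher doses were reached by repeated injections, so dose and number of injections cannot be told apart. In this model the repeat is made from the actin promoter in skeletal muscle fibers, in a gene other than the one mutated in patients, and the labels do not give the age of the WT and NT mice.

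In myotonic dystrophy type 1, RNA with expanded CUG repeats stays in the nucleus and binds muscleblind proteins, which set the adult splicing pattern of many muscle genes. Exons of these genes then return to a fetal pattern. A shift between isoforms can leave the amount of transcript as it was, or change it where an isoform is less stable or where transcription itself differs.

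The members belong to different parts of the muscle fiber. *Ttn* encodes titin, the elastic filament that runs from Z-disc to M-line, *Neb* encodes nebulin along the thin filament, *Ldb3* an adaptor of the Z-disc and *Capzb* the beta subunit of the protein that caps actin filaments. *Bin1* shapes the membrane of the T-tubules, and *Cacna1s* is the pore-forming subunit of the calcium channel that senses voltage there. *Camk2b* is a subunit of the calcium- and calmodulin-dependent kinase II, *Clasp1* binds growing microtubule ends, *Nfix* is a transcription factor of the nuclear factor I family and *Mtmr1* is a phosphoinositide phosphatase of the myotubularin family.

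L9 is complementary to CUG repeats, so the annotated protein-coding transcripts of the 10 genes were searched, on the transcript strand, for CTGCTGCTG. Only *Clasp1* and *Ttn* held it. Among 13775 protein-coding genes tested, 21.1% held it, and among 5331 of them with a longest transcript of at least 5 kb, 27.2% did. Both sites are shown because they are the places in these annotated transcripts where L9 would find at least 3 repeat units in a row. Introns and noncoding transcripts were not searched. The *Clasp1* site lies in coding exon sequence at chr1:118509158-118509172 (GRCm39, plus strand), has 5 units and is in 20 of 22 coding transcripts. The *Ttn* site lies in coding exon sequence at chr2:76706135-76706143 (GRCm39, minus strand), has 3 units and is in 4 of 20 coding transcripts. Capitals mark the CTG units.
Clasp1: gaccatcCTGCTGCTGCTGCTGgaaactc
Ttn: gaacaacgcaCTGCTGCTGcaggtgaaga

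Library totals ran from 13605309 to 26956558 counts, with a median of 20141850.5. Each member had at least 366 counts in every library, which was the lowest value of *Mtmr1*. *Ttn* alone had between 108371 and 326074. The 6 libraries that the labels number as a second set stood apart on the first principal component, which held 59.9% of the variance, and the set was therefore a term of the model. All WT, 42.4 mg/kg, Brush and pacDNA-Scr libraries are of the first set. Free L9 B stood apart from the rest on the second component, and 14485 genes were detected in it. In 5 libraries all 37 mitochondrial genes were listed at 0. The table names 9 libraries by group and running number alone, among them all 3 of 42.4 mg/kg, and results at that dose are given with and without a term for this naming where it matters. The 7 markers of skeletal muscle fibers were detected in every group, with a summed level of 88336 to 173368 CPM (counts scaled to a common library size after TMM normalization) per library.

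The members differed widely in level. Per kb of merged exons, the mean in NT was highest for *Neb*, at 232 ± 60.04 CPM per kb (SD, n = 8), followed by *Ldb3* (160 ± 9.65), *Cacna1s* (121 ± 17.8), *Bin1* (101 ± 11.8), *Ttn* (81.9 ± 19.0), *Nfix* (44.9 ± 3.88), *Capzb* (32.0 ± 3.81), *Camk2b* (16.6 ± 1.91), *Mtmr1* (4.56 ± 0.601) and *Clasp1* (3.496 ± 0.494). Neighbors in this order overlapped between NT libraries for *Neb* and *Ldb3*, *Cacna1s* and *Bin1*, *Bin1* and *Ttn*, and *Mtmr1* and *Clasp1*. The WT order was the same except that *Ttn* (101 ± 24.4 CPM per kb, n = 5) stood before *Bin1* (73.9 ± 8.66). Merged exons count rarely used ones as well. The order depends on the length used. Per kb of the longest transcript, NT had *Ldb3* before *Neb*, *Bin1* before *Cacna1s* and *Clasp1* before *Mtmr1*, and WT had *Ldb3* before *Neb*, *Bin1* before *Ttn*, *Capzb* before *Nfix* and *Clasp1* before *Mtmr1*.

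**Figure D1:**
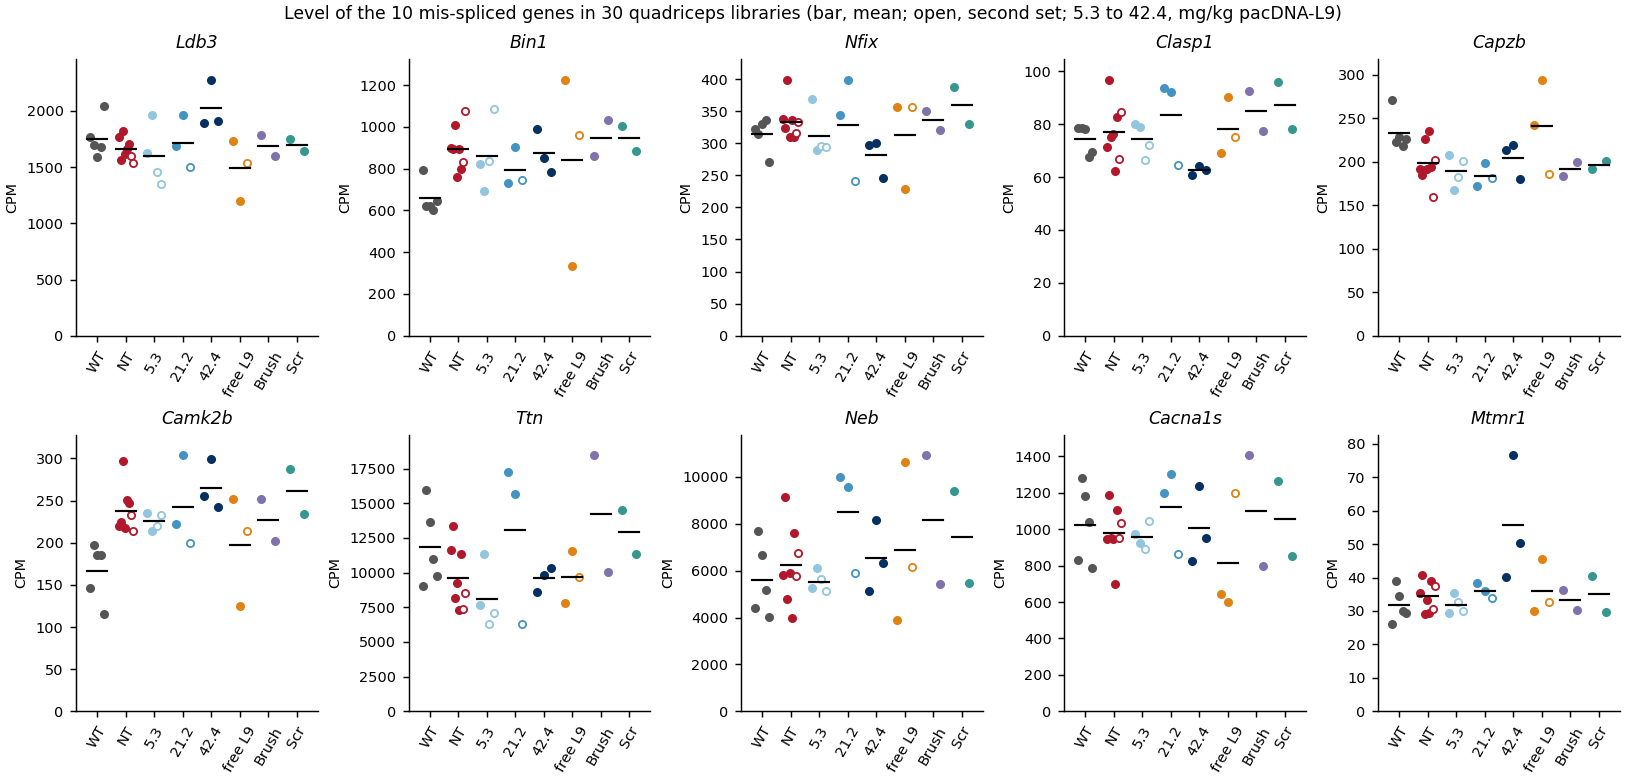
Level of each of the 10 genes (CPM, vertical axis from 0) in the 30 libraries, by condition (horizontal axis), with 1 point per mouse, a bar at the mean and open points for the second deposited set. For Camk2b, all 8 NT points lie above all 5 WT points. For Mtmr1, the 42.4 mg/kg points lie at 40.1, 50.3 and 76.6 CPM, and for most other panels the conditions overlap.

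How far replicates spread differed by gene. *Neb* and *Ttn* had the widest spread among NT mice, with coefficients of variation of 25.9% and 23.2%, and a highest library 2.30 and 1.83 times the lowest. *Ldb3* varied least, at 6.05%, and *Nfix* was next at 8.65%. In WT *Neb* (27.5%) and *Ttn* (24.1%) were again the widest, and *Clasp1* varied least (7.30%). A difference of the same size is therefore easier to see in *Ldb3* or *Nfix* than in the giant sarcomeric genes among NT mice.

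The first comparison was of NT with WT, that is, of mice with and without the expanded repeat. *Camk2b* alone of the 10 genes passed the test. It was higher in NT, in an edgeR quasi-likelihood fit over all 17518 genes. Of all genes, 5.31% passed (3.64% higher, 1.67% lower), so 1 of 10 is a share near the background and is not read as a property of these genes as a group. The median log2 fold change of the 10 was 0.10, beside -0.03 over all genes, and 6 of them had estimates above 0.

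*Camk2b* (ENSMUSG00000057897, GRCm39 chr11:5915791-6016362, minus strand) was at 147, 197, 185 and 186 CPM in WT mice 1 to 4 and at 116 CPM in the WT mouse that the table does not number. In NT the lowest library was at 214 CPM, the median was 229 and the highest was 297. No NT library overlapped with WT. Groups did not overlap for 4.72% of all genes in this comparison. The log2 fold change was 0.54 (SE 0.15), which is 1.45-fold with a 95% interval of 1.17 to 1.80, and the adjusted p was 0.0338 by edgeR with Benjamini-Hochberg adjustment. In the first set alone an exact two-sided permutation test gave p = 0.00216 for 6 NT against 5 WT libraries, the smallest p these numbers allow, and 0.0108 after adjustment over the 5 such tests made. This p follows from the lack of overlap. The genes of the 5 tests were singled out from the same libraries, and the adjustment does not cover that choice. The call is close to the threshold: it was lost in 5 of the 13 fits that each left out 1 library, and in the first set alone (log2 fold change 0.56, adjusted p 0.0577). The estimate stayed between 0.42 and 0.61 in all 28 alternatives.

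The total level of *Camk2b* in bulk muscle cannot tell more cells of a kind from more RNA per cell, and the same holds for every value below. Summed levels of the fast myosin heavy chain genes *Myh1* and *Myh2* ran from 3598 to 9290 CPM in WT and from 5875 to 26639 CPM in NT. The part of fiber type in the difference was not tested. Both genes were present in the libraries. The share of *Camk2b* exon bases that lie under exons of the opposite strand is 12.6%, and whether counting used strand is not given in the sources used here.

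Across all conditions *Camk2b* was ordered 42.4 mg/kg (265 ± 29.7 CPM, n = 3), pacDNA-Scr (261 ± 37.9, n = 2), 21.2 mg/kg (242 ± 54.9, n = 3), NT (238 ± 27.5, n = 8), Brush (227 ± 34.9, n = 2), 5.3 mg/kg (226 ± 9.98, n = 4), free L9 (197 ± 65.0, n = 3) and WT (166 ± 33.9, n = 5). Every neighboring pair in this order differed by less than the larger of the 2 SDs. No treated group differed from NT past the test. At 42.4 mg/kg the 3 libraries were at 256, 299 and 242 CPM, and none overlapped with WT. Against WT the log2 fold change there was 0.68 (SE 0.19), or 1.60-fold (95% interval 1.23 to 2.08), with an adjusted p of 0.0176 by edgeR. Without 42.4 mg/kg B it was 0.58 with an adjusted p of 0.117.

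The family of *Camk2b* was read from a list of its 3 sister subunits. *Camk2d* was higher in NT, at 96.0 ± 20.4 CPM against 50.3 ± 9.20 in WT (log2 fold change 0.93, SE 0.20, edgeR adjusted p 0.00332). *Camk2a* and *Camk2g* did not pass (-0.31, adjusted p 0.356, and -0.09, adjusted p 0.812). The genes whose level was most like that of *Camk2b* over the 24 first-set libraries, of 9573 genes compared, were *Cog1* (Spearman's rho 0.893), *Tom1l2* (0.888) and *Trappc9* (0.884).

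*Bin1* (ENSMUSG00000024381) came next in the size of its difference. WT mice 1 to 4 were at 792, 622, 623 and 603 CPM, and the unnumbered WT mouse was at 646. In NT the lowest library was at 761 CPM, the median was 893 and the highest was 1075. WT 1 was the only WT library inside the NT range. The log2 fold change was 0.40 (SE 0.19, 95% interval 0.02 to 0.79), and the adjusted p was 0.278 by edgeR, so the difference did not pass. The unadjusted p was 0.0423, and 16.5% of all genes had one under 0.05. The exact permutation test in the first set gave 0.00649 (0.0162 adjusted over 5 tests, which does not cover the choice of the gene from the same libraries). In an edgeR fit of WT and NT alone, the estimate was 0.45 and the adjusted p 0.0195. That fit had no other group to set the spread, and it also had no set term, because all WT libraries are of the first set. Free L9 B, at 332 CPM, was far below the other 2 libraries of its group (1226 and 961 CPM) and is part of the shared spread of the fit over all groups. Its part in the difference between these fits was not tested. Of 5 genes of the T-tubule list (*Dnm2*, *Cav3*, *Jph1*, *Jph2* and *Mtm1*) none passed in NT against WT by edgeR or DESeq2, and 0 had an unadjusted p under 0.05.

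For the other 8 genes the NT and WT libraries overlapped and the estimates lay between -0.20 and 0.20. *Capzb* was the lowest, at 198 ± 23.7 CPM in NT (n = 8) against 233 ± 21.5 in WT (n = 5), a log2 fold change of -0.20 (SE 0.11, adjusted p 0.366). *Ttn* had 9629 ± 2229 CPM in NT against 11873 ± 2865 in WT (-0.19, SE 0.20). *Neb* went the other way, with 6223 ± 1614 CPM in NT against 5593 ± 1541 (0.20, SE 0.24). The estimates of *Mtmr1* (0.13), *Nfix* (0.11), *Clasp1* (0.09), *Ldb3* (-0.04) and *Cacna1s* (-0.09) were smaller. A difference of 2-fold lay outside the 95% interval of each of the 10 genes. Among the 9 that did not pass, the widest bounds were 0.66-fold, for *Ttn*, and 1.73-fold, for *Bin1*.

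**Figure D2:**
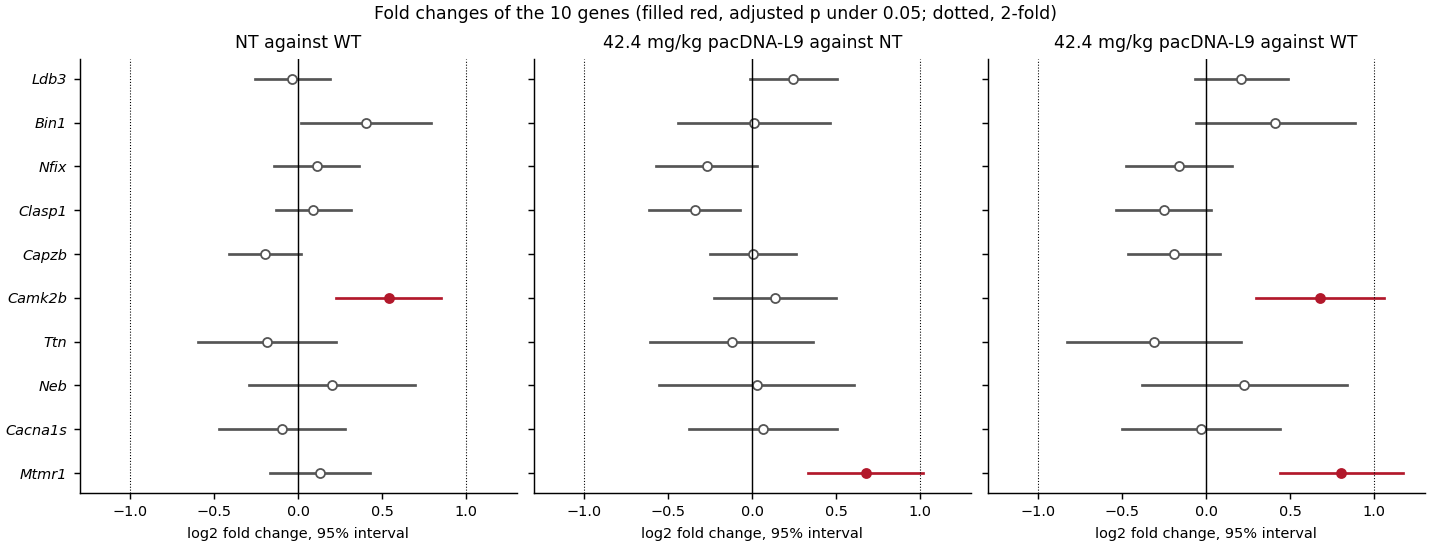
Log2 fold change with its 95% interval (horizontal axis) for each of the 10 genes in 3 comparisons, from 1 edgeR fit of 30 libraries, with filled red points for an adjusted p under 0.05 and dotted lines at a 2-fold change. Camk2b stands at 0.54 in NT against WT, Mtmr1 at 0.68 in 42.4 mg/kg against NT, and both are past the test in 42.4 mg/kg against WT, while the other intervals cross or lie close to 0.

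The next comparison was of the highest pacDNA-L9 dose with NT. *Mtmr1* alone of the 10 genes passed, and it was higher at 42.4 mg/kg. Of all genes 3.14% passed in this comparison (2.28% higher, 0.862% lower), so here too 1 of 10 is near the background. The median log2 fold change of the 10 was 0.02, beside -0.02 over all genes. Both comparisons use the same NT mice, so the values of a gene in them are not independent.

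*Mtmr1* (ENSMUSG00000015214, GRCm39 chrX:70408350-70462948, plus strand) was at 40.1, 76.6 and 50.3 CPM in 42.4 mg/kg A, B and C. The lowest NT library was at 29.1 CPM, the median was 34.4 and the highest was 40.8. Library A lay just inside the NT range, C above it and B far above it. The log2 fold change was 0.68 (SE 0.17), or 1.60-fold (95% interval 1.26 to 2.02), with an adjusted p of 0.0184 by edgeR. An exact two-sided permutation test in the first set gave p = 0.0238 for 3 against 6 libraries. Without 42.4 mg/kg B the log2 fold change was 0.37 and the adjusted p 0.519, so the call rests on this library. With a term for the naming of libraries the estimate was 0.73 and the adjusted p 0.0760.

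Against WT, at 26.2 to 39.04 CPM, all 3 libraries of 42.4 mg/kg were higher. The log2 fold change was 0.80 (SE 0.18), or 1.75-fold (95% interval 1.36 to 2.25), with an adjusted p of 0.00307 by edgeR, and 0.50 with an adjusted p of 0.117 without 42.4 mg/kg B. In this comparison 2 of the 10 genes passed, *Camk2b* and *Mtmr1*, where 9.98% of all genes did (6.13% higher, 3.85% lower). The 3 genes whose libraries did not overlap there were these and *Clasp1*, where 20.4% of all genes did not overlap.

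The dose trend, fitted to 18 libraries with NT at 0 mg/kg, gave a slope for *Mtmr1* of 0.15 on the log2 scale per 10 mg/kg (SE 0.035, adjusted p 0.0164 by edgeR). It was the only one of the 10 that passed, where 4.24% of all genes did (2.92% higher, 1.32% lower). The mean was 34.3 ± 4.53 CPM in NT (SD, n = 8) and 31.8 ± 4.99 in WT (n = 5). The 4 mice given 5.3 mg/kg had a mean of 31.9 ± 2.66 CPM, the 3 given 21.2 mg/kg had 36.1 ± 2.29 and the 3 given 42.4 mg/kg had 55.7 ± 18.8, so only the highest dose stood more than 1 SD of NT from the NT mean. Without 42.4 mg/kg B the slope was 0.085 and the adjusted p 0.230, and with the naming term it was 0.091 with an adjusted p of 0.622.

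*Mtmr1* lies on the X chromosome, and all 3 mice of 42.4 mg/kg were female. Among NT mice the 4 females were at 29.1 to 33.4 CPM and the 4 males at 35.3 to 40.8 CPM, without overlap. The share of all genes that split by sex in this way was not computed. All 3 treated females were thus above the 4 NT females. With sex as a term the log2 fold change against NT was 0.71 and the adjusted p 0.0194. The means of the remaining conditions lay within the range of NT, at 36.1 ± 8.34 CPM for free L9, 35.1 ± 7.71 for pacDNA-Scr and 33.3 ± 4.30 for Brush. The highest free L9 library, at 45.6 CPM, was above all NT libraries and above 42.4 mg/kg A.

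Markers of macrophages moved with the dose. The summed level of 6 macrophage genes, none of them at 0 in every library, was 208 to 304 CPM at 42.4 mg/kg, 101 to 237 CPM at 21.2 mg/kg, 115 to 157 CPM at 5.3 mg/kg and 53.1 to 99.1 CPM in NT. It was 161 to 170 CPM with Brush and 91.2 to 133 CPM with pacDNA-Scr. Summed levels of 6 slow fiber genes were 173 to 1950 CPM at 42.4 mg/kg and 80.3 to 1429 CPM in NT. The part of macrophage or slow fiber content in the *Mtmr1* difference was not tested. Of the *Mtmr1* exon bases, 18.6% lie under exons of the opposite strand. None of *Mtmr2*, *Mtmr4* and *Mtmr6*, its relatives in the list, passed at 42.4 mg/kg against NT by edgeR or DESeq2, 0 had an unadjusted p under 0.05, and their median log2 fold change was -0.0015. The genes most like *Mtmr1* over the 24 first-set libraries were *Pnpla8* (rho 0.923), *Cul1* (0.916) and *Wdr43* (0.902).

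**Figure D3:**
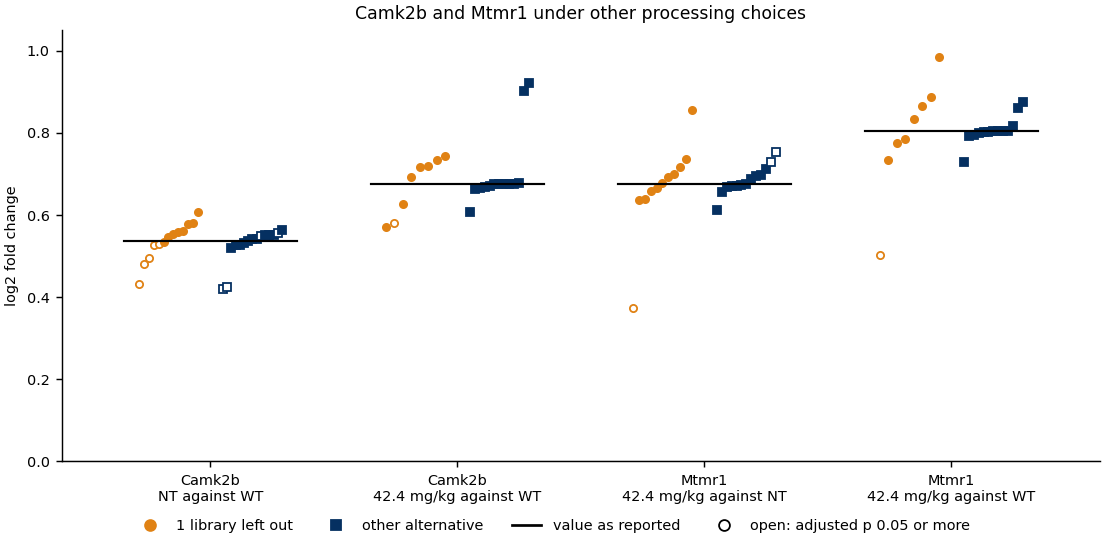
Log2 fold change (vertical axis, from 0) of Camk2b and Mtmr1 in the comparisons in which they passed, as reported (bar), with 1 library left out (round points) and under the other alternatives (squares), open where the adjusted p was 0.05 or more. No point falls below 0.37, the value of Mtmr1 against NT without 42.4 mg/kg B, and the open points of Camk2b in NT against WT lie between 0.42 and 0.56.

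*Ldb3*, *Nfix* and *Clasp1* stood at the edge of the NT range at 42.4 mg/kg, and none of them passed the test. *Ldb3* was at 1890, 2278 and 1906 CPM in 42.4 mg/kg A, B and C, above all 8 NT libraries (1533 to 1821 CPM), with a log2 fold change of 0.25 (SE 0.13, adjusted p 0.426). *Nfix* was at 297, 301 and 246 CPM, below all NT libraries (310 to 399 CPM), with -0.27 (SE 0.15, adjusted p 0.458), and with -0.065 once the naming term was added. These 2 were the members whose libraries did not overlap with NT, where 7% of all genes did not.

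*Clasp1*, which holds the 5 CTG units shown above, was at 60.9, 64.1 and 62.6 CPM at 42.4 mg/kg, the narrowest group of all. In NT the lowest library was at 62.5 CPM, the median was 75.7 and the highest was 96.9. The log2 fold change was -0.34 (SE 0.13, 95% interval -0.61 to -0.07). The unadjusted p was 0.0144 (13.1% of all genes had one under 0.05) and the adjusted p 0.198 by edgeR, so the difference did not pass, and leaving out any 1 library did not bring it past. With the naming term the log2 fold change was -0.25 (SE 0.15, edgeR adjusted p 0.610). At 21.2 mg/kg the estimate had the other sign, 0.12 (SE 0.13), with libraries at 93.5, 92.3 and 64.5 CPM, the last of which is of the second set. The slope on dose was -0.06 per 10 mg/kg (adjusted p 0.328). *Ttn*, with 3 CTG units in a minority of its transcripts, was at 8602, 9834 and 10299 CPM at 42.4 mg/kg, inside the NT range of 7305 to 13374 CPM, with a log2 fold change of -0.12 (SE 0.24), which turned to 0.14 with the naming term. With free L9 at 5.3 mg/kg the estimates were 0.04 for *Clasp1* and 0.08 for *Ttn*, and neither passed.

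None of the remaining genes passed at 42.4 mg/kg against NT. *Camk2b* had an estimate of 0.14 (SE 0.18), *Cacna1s* 0.07 (SE 0.22), *Neb* 0.03 (SE 0.28), *Bin1* 0.01 (SE 0.22) and *Capzb* 0.01 (SE 0.13). With the naming term *Camk2b* was at 0.37, *Cacna1s* at 0.40 and *Neb* at 0.27, and none passed. Without 42.4 mg/kg B *Cacna1s* was at -0.11 and *Neb* at -0.17, so the sign of neither is settled. *Bin1*, at 989, 851 and 782 CPM, thus lay inside the NT range, with each library above at least 4 of the 5 WT libraries. Among the 9 genes that did not pass, the widest bounds of the 95% intervals were 0.65-fold, for *Clasp1*, and 1.52-fold, for *Neb*.

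At the lower doses none of the 10 genes passed by edgeR. At 21.2 mg/kg 0.0685% of all genes passed, and none of the 10 had an unadjusted p under 0.05, beside 2.21% of all genes. *Ttn* and *Neb* had the highest estimates there (0.41, SE 0.23, and 0.44, SE 0.27). *Ttn* was at 17225 and 15638 CPM in 21.2 mg/kg A and B and at 6288 CPM in C, which is of the second set, so the group spanned more than the NT range. At 5.3 mg/kg 0% of all genes passed (277 had an unadjusted p under 0.05, and DESeq2 called 3). All 10 members had estimates just below 0 there, from -0.15 to -0.01, and none had an unadjusted p under 0.05, beside 1.58% of all genes. Scaled by library size alone, 3 of the 10 were below 0, so this direction depends on the scaling. These estimates share the NT libraries and the TMM factors of the 4 treated libraries, and the median over all genes was -0.0025.

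None of the 10 passed in the groups without a pacDNA-bound L9 strand either. With free L9, 0.942% of all genes passed. *Capzb* was the only member with an unadjusted p under 0.05 (0.0258), beside 13.8% of all genes, at 243, 294 and 186 CPM and a log2 fold change of 0.29 (SE 0.12, adjusted p 0.287). Free L9 B held the lowest level of the 30 libraries for *Ldb3* (1199 CPM), *Bin1* (332 CPM), *Nfix* (228 CPM) and *Cacna1s* (602 CPM). Without it the estimate of *Capzb* was 0.12, that of *Bin1* went from -0.11 to 0.26, that of *Neb* from 0.16 to -0.31 and that of *Camk2b* from -0.27 to -0.02, and none passed. With Brush and with pacDNA-Scr 0% of all genes passed (329 and 270, or 1.88% and 1.54%, had an unadjusted p under 0.05, and DESeq2 called 6 and 1), and no member had an unadjusted p under 0.05. Estimates ran from -0.09 to 0.45 with Brush and from -0.05 to 0.31 with pacDNA-Scr, with *Ttn* the highest in both. Without Brush A the estimate of *Ttn* with Brush was -0.055. With 2 libraries each, the interval of *Neb* reached 2.01-fold with Brush and 1.83-fold with pacDNA-Scr.

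The giant transcripts moved together from mouse to mouse. The 24 first-set libraries were placed by the median log2 deviation of 376 other genes whose longest transcript is at least 10 kb. Spearman's rho with this long-transcript index was 0.900 for *Neb*, 0.856 for *Ttn*, 0.755 for *Cacna1s*, 0.713 for *Clasp1* and 0.598 for *Mtmr1*. It was -0.10 for *Camk2b*, 0.04 for *Nfix*, -0.18 for *Ldb3*, -0.42 for *Bin1* and -0.42 for *Capzb*. Without free L9 B, in 23 libraries, the values for *Neb*, *Ttn*, *Cacna1s*, *Clasp1* and *Mtmr1* were 0.908, 0.848, 0.880, 0.691 and 0.597. These are descriptions over libraries that also differ in condition. *Ttn* and *Neb* had a rho of 0.847 with each other, and *Bin1* and *Camk2b* one of 0.702.

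**Figure D4:**
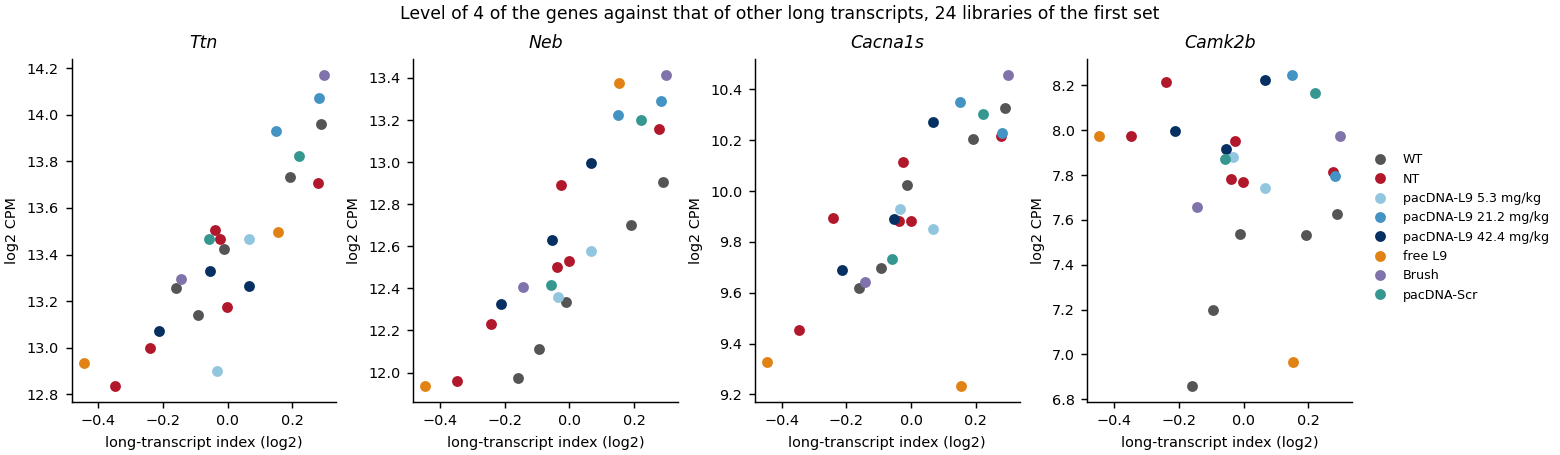
Log2 CPM (vertical axis) of Ttn, Neb, Cacna1s and Camk2b against the long-transcript index (horizontal axis, median log2 deviation of 376 other genes with transcripts of at least 10 kb) in the 24 first-set libraries, colored by condition. The points of Ttn, Neb and Cacna1s climb with the index, with free L9 B low in the Cacna1s panel, and those of Camk2b show no such slope.

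The index overlapped between all conditions. It ran from -0.16 to 0.29 in WT, -0.35 to 0.28 in NT, -0.13 to 0.28 at 21.2 mg/kg and -0.21 to 0.07 at 42.4 mg/kg. The libraries in which *Ttn* was highest, Brush A (18468 CPM, index 0.30), 21.2 mg/kg A (17225 CPM, 0.28) and WT 2 (15946 CPM, 0.29), had the highest index values as well. The part of transcript length, or of RNA quality, in the levels of *Ttn*, *Neb*, *Cacna1s*, *Clasp1* and *Mtmr1* was not tested.

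The total level of other genes known to be mis-spliced in myotonic dystrophy was read from a list of 36. In NT against WT 4 were higher and 2 lower, where 5.31% of all genes passed (3.64% higher, 1.67% lower), with a median log2 fold change of -0.0033. *Pdlim3*, a Z-disc protein, was at 924 ± 108 CPM in NT (n = 8) against 513 ± 81.2 in WT (n = 5), a log2 fold change of 0.89 (adjusted p 0.000242). *Nrap* (0.71, adjusted p 0.00273) and *Lrrfip2* (0.35, adjusted p 0.0228) were also higher. *Clcn1*, the chloride channel whose loss gives myotonia, was lower, at 94.8 ± 15.8 CPM against 173 ± 37.1 (-0.83, adjusted p 0.00494), and so was *Gfpt1* (-0.51, adjusted p 0.0463). *Clcn1* was at 62.2 ± 1.93 CPM at 42.4 mg/kg, with an estimate of -0.65 against NT that did not pass (adjusted p 0.134). At 42.4 mg/kg against NT 1 of the 36 passed by edgeR, and it was higher, beside 2.28% of all genes higher. DESeq2 called 2 of the 36 there. By edgeR 8 had an unadjusted p under 0.05, beside 13.1% of all genes. In the dose trend 3 of the 36 passed, all higher, beside 2.92% of all genes. None of the 36 passed by edgeR or DESeq2 at 21.2 or 5.3 mg/kg, or with free L9, Brush or pacDNA-Scr, where at most 1 had an unadjusted p under 0.05.

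Of 40 family members and partners of the 10 genes, 6 were higher in NT than in WT and 1 was lower, beside 3.64% and 1.67% of all genes. *Camk2d*, described above, was one of the 6. *Lmod2* and *Klhl41* work with nebulin on the thin filament. *Lmod2* was at 244 ± 66.1 CPM in NT against 59.2 ± 23.9 in WT (log2 fold change 1.91, adjusted p 0.000147), and *Klhl41* at 1182 ± 135 CPM against 504 ± 43.9 (1.24, adjusted p 1.89e-08). *Ankrd1*, which binds titin, was at 34.7 ± 24.4 CPM against 3.52 ± 1.39 (3.01, adjusted p 0.00419). *Actn2*, a Z-disc crosslinker (1.03, adjusted p 0.00698), and *Cacng1*, the gamma subunit of the channel of *Cacna1s* (0.91, adjusted p 0.00593), were higher, and *Pdlim7*, a relative of *Ldb3*, was lower (-1.58, adjusted p 0.000686). *Ttn*, *Neb*, *Ldb3* and *Cacna1s* themselves did not pass in that comparison.

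At 42.4 mg/kg against NT, 2 of the 40 passed, which is near the 3.14% of all genes. *Lmod2* was higher again, at 631 ± 43.6 CPM against 244 ± 66.1 (1.502, adjusted p 0.00485), and *Lmod3* was lower, at 112 ± 26.7 CPM against 203 ± 38.9 (-0.82, adjusted p 0.0322). Both calls come from the fit without a naming or sex term, and whether they hold with these terms is not given here. None of the 40 passed by edgeR or DESeq2 in the 5 other comparisons with NT, in which at most 5 had an unadjusted p under 0.05, with free L9. The median over the 40 was -0.07 in NT against WT and -0.0055 at 42.4 mg/kg, beside -0.03 and -0.02 over all genes.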

How the data were processed

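The members and gene lists were chosen with earlier results of these data known. The authors deposited raw counts per gene, not normalized. The submitters' processing notes name HISAT2 2.0.5, DESeq2 and GRCm39. The counting program's options and the annotation release are not given in the sources used here. Symbols, coordinates and transcripts came from GENCODE M39 (GRCm39), which held 56017 of the 56748 genes. Samples were grouped by their labels. Counts were fitted with edgeR 4.0.16 in R 4.3.3: filterByExpr on 8 conditions, TMM, robust quasi-likelihood F-test, condition plus deposited set, 30 libraries, Benjamini-Hochberg adjustment over 17518 genes, threshold 0.05. The dose trend used 18 libraries. CPM are after TMM, and log2 CPM used a prior count of 2. Replicates are separate mice. Counting error covers little of their spread at this depth. Named were all members, at most 8 genes of each other list past the threshold (smallest adjusted p first) in NT against WT or 42.4 mg/kg against NT, and the 3 genes most like each member past it. The edgeR fit was tested on simulated counts. Alternatives were DESeq2 1.42.0 and its size factors, library size alone, other filters, sex, set and naming terms, subsets of libraries, and each library left out. The 1 WT column whose name matched no numbered label entered as WT. Of the other mis-spliced genes past the threshold, 1 is counted but not reported by name here.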

Additional observations from a re-analysis of the deposited data

Results flagged for a closer look

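Among 30 sets of libraries of 1 gene in 1 condition with 4 to 10 mice, 5 held a library far from the others by Dixon's criterion, where chance flags about 1 in 20. WT 1 was high for *Bin1* (792 CPM, next 646) and for *Capzb* (271 CPM, next 229), and by the inferred sex it is the male of the WT group. NT 3 was high for *Nfix* (399 CPM, next 338) and for *Camk2b* (297 CPM, next 251). The 5.3 mg/kg library A was high for *Nfix* (370 CPM, next 296). Without NT 3 the *Camk2b* log2 fold change in NT against WT was 0.48 with an adjusted p of 0.0813, and without WT 1 that of *Bin1* was 0.48 with an adjusted p of 0.227, both by edgeR.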

How the results depend on the processing

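Over 2210 recomputed log2 fold changes of the 10 genes, 2192 kept their direction if called and their side of the threshold, 17 called values no longer passed, 1 passed that had not, and none of the called values changed sign. The *Camk2b* call in NT against WT was lost in the first set alone (adjusted p 0.0577) and without the 5 libraries at 0 for all mitochondrial genes (0.0643), both leaving 0 of the 10 genes called, and without WT 1, the unnumbered WT mouse, NT 3, NT 5 or NT 6 (0.0531 to 0.116). With only the 2 groups compared, and no set term, 2 of the 10 genes were called there, *Camk2b* and *Bin1*. The *Mtmr1* call at 42.4 mg/kg against NT was lost with a term for the naming of libraries (adjusted p 0.0760), with that term in the first set (0.166) and without 42.4 mg/kg B (0.519). *Mtmr1* and *Camk2b* against WT were lost without 42.4 mg/kg B. In the dose trend *Mtmr1* was lost with the naming term, with it in the first set (adjusted p 0.700) and without 42.4 mg/kg B, which left 0 of the 10 called each time. The cause was not tested, except that smaller subsets hold fewer libraries.

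Counts over all genes moved more. With the naming term 240 genes were called at 42.4 mg/kg against NT, 1049 against WT and 50 in the dose trend. In the first set with that term these were 110, 898 and 4, free L9 had 0 and 21.2 mg/kg had 2. By DESeq2 pacDNA-Scr had 1, Brush 6, free L9 525, 5.3 mg/kg 3 and 21.2 mg/kg 21. In the first set 2 were called at 21.2 mg/kg, 354 with free L9 and 472 in the dose trend, and without the set term 22 with free L9 and 452 in the dose trend. With at least 10 counts in every library 42 were called with free L9, 5 at 21.2 mg/kg and 1 at 5.3 mg/kg. Without a filter 1 was called at 5.3 mg/kg and 2 with Brush, and with sex as a term 4 with Brush. Without the libraries at 0 for mitochondrial genes 3 were called at 21.2 mg/kg and 347 with free L9, and with only the 2 groups compared 4 and 3. With 1 library left out, 704 to 929 genes were called in NT against WT, 126 to 538 at 42.4 mg/kg against NT, 2 to 20 at 21.2 mg/kg, 58 to 1360 with free L9, 912 to 1716 at 42.4 mg/kg against WT and 160 to 907 in the dose trend. Members called then ran from 0 to 1 in NT against WT, 42.4 mg/kg against NT and the dose trend, and from 0 to 2 at 42.4 mg/kg against WT. A dose trend by DESeq2 was not run.

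Replicate numbers are shared by WT and NT. Same-numbered mice 1 to 4 had correlations of deviations from -0.023 to 0.242, and 2 of 4 WT mice were closest to their own number, so the numbers were not shown to pair the samples. With the replicate block over these mice 631 genes and 0 of the 10 were called (*Camk2b* 0.42, adjusted p 0.102), and without it 680 and 0 (0.42, adjusted p 0.114).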

Other observations

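At 42.4 mg/kg against WT, where 9.98% of all genes passed, 5 of the 36 other genes known to be mis-spliced were higher and 2 lower, and 8 of the 40 family members and partners were higher and 2 lower, by edgeR. The list of the *Neb* family and its partners held 3 of the 8. The median log2 fold change was 0.08 over the 36 and -0.12 over the 40, beside -0.02 over all genes.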
